A study of Gallus gallus with 6 samples.

Results

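The membrane carriers that move neurotransmitters and amino acids were examined in the chick spinal cord, in cells sorted as differentiating neurons. The cells were taken with and without repression of Tcf-dependent transcription. All genes whose single symbol on the array belongs to the SLC1, SLC3, SLC6, SLC7, SLC17, SLC18, SLC32, SLC36, SLC38 or SLC43 families were taken, together with SLC5A7. This rule uses names and no measured value, and it found 55 of the 13009 genes measured. By their known cargo, 19 were transmitter transporters, 31 were nutrient amino acid transporters and 4 were other carriers. The last, SLC7A6OS, shares the letters of a symbol with SLC7A6 but is no transporter. Where several probe sets read a gene, the one with the highest mean over all 6 arrays stood for it.

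The neural tubes of wild-type White-Leghorn embryos were electroporated in ovo with Tubb3:Cre and a Cre-dependent vector and were dissected the next day, at 4 days of incubation. In Tubb3::CAG:TcfEnR embryos the vector carried TcfEnR, which fuses the engrailed repressor to the HMG box of Tcf3, with GFP behind an IRES. In Tubb3::CAG:control embryos it carried GFP alone, so that both groups share the electroporation, the Cre and the GFP. There were 3 arrays per group, each from GFP+ cells sorted from its own pool of dissociated neural tubes. The Cre was driven by a TUBB3 enhancer, and the sorted cells could be of every neuronal type in which that enhancer was active. Markers of other cells were also bright in control arrays. Log2 means were 12.44 for the progenitor gene HES5, 10.28 for the mesenchyme gene COL1A1 and 9.75 for the globin HBZ. The values are thus those of the sorted cells as a whole, and the share of neurons among them was not measured.

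Transmission at a synapse rests on 2 kinds of carrier. Vesicular transporters load the transmitter into synaptic vesicles and so mark what a neuron releases, whereas transporters of the plasma membrane clear it from the cleft into neurons or glia, or bring in its precursor. Nutrient transporters supply amino acids for protein synthesis, and many of them act as exchangers or as pairs of a heavy and a light chain. In the young spinal cord, motor neurons are cholinergic and interneurons are glutamatergic, GABAergic or glycinergic, while radial glia carry glutamate transporters.

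Values are log2 RMA signals of probe sets, on a scale whose 5th percentile lay at 3.24 to 3.39 and whose array medians lay at 6.929 to 6.933. Arrays of one group correlated with Pearson's r of 0.978 to 0.991 over probe sets, and arrays of different groups with 0.888 to 0.917. The mean log2 difference between the 3′ and 5′ ends of 3 control transcripts was 0.23 to 0.36 in control and 0.31 to 0.35 in TcfEnR arrays (exact permutation test, two-sided, p = 0.5, where 3 arrays against 3 allow no p under 0.1). A gene was called lower or higher under TcfEnR where its adjusted p was at most 0.05 (limma, Benjamini-Hochberg over 38439 probe sets). By that measure 32.6% of all genes were lower and 25.0% were higher, so that a call by itself was common in this experiment. Signals of different probe sets were not compared as amounts. The summed level given for some lists does add their linear signals, so that the brightest genes of a list weigh most in it.

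Transporters moved in both directions. Of the 55 members, 16 were lower and 17 were higher, or 60% called against 57.6% of all genes. With a change of at least 2-fold, 8 were lower and 7 were higher, against 13.4% and 8.25%, or 27.3% in either direction against 21.7%. Past the 4-fold threshold of the methods, 4 members were lower (SLC5A7, SLC18A3, SLC1A3 and SLC6A15), against a background of 3.46%, and 5 were higher (SLC1A6, SLC6A17, SLC6A7, SLC6A4 and SLC38A3), against 1.55%. In 18 members every TcfEnR array lay below every control array, and in 17 every one lay above, where 37.3% and 28.8% of all genes did so, or 66.0% in either direction.

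Set against each other, the transmitter transporters moved farther than the nutrient transporters. Among the 19 transmitter transporters 6 fell (31.6%) and 8 rose (42.1%), against 32.6% and 25.0% of all genes. Their median log2 fold change was 0.11 and their median absolute change 0.96. Among the 31 nutrient transporters 9 fell and 9 rose (29% each), with a median of −0.06 and a median absolute change of 0.53. Over all genes the median was −0.09 and the median absolute change 0.52, so that the nutrient class was close to the background and the transmitter class was wider. A change of at least 4-fold was seen in 26.3% of the transmitter class, 12.9% of the nutrient class and 5.01% of all genes. These are descriptions of the classes, and the difference between them was not tested. Without control replicate 2, the members higher numbered 11 and the nutrient transporters higher numbered 5.

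**Figure D1:**
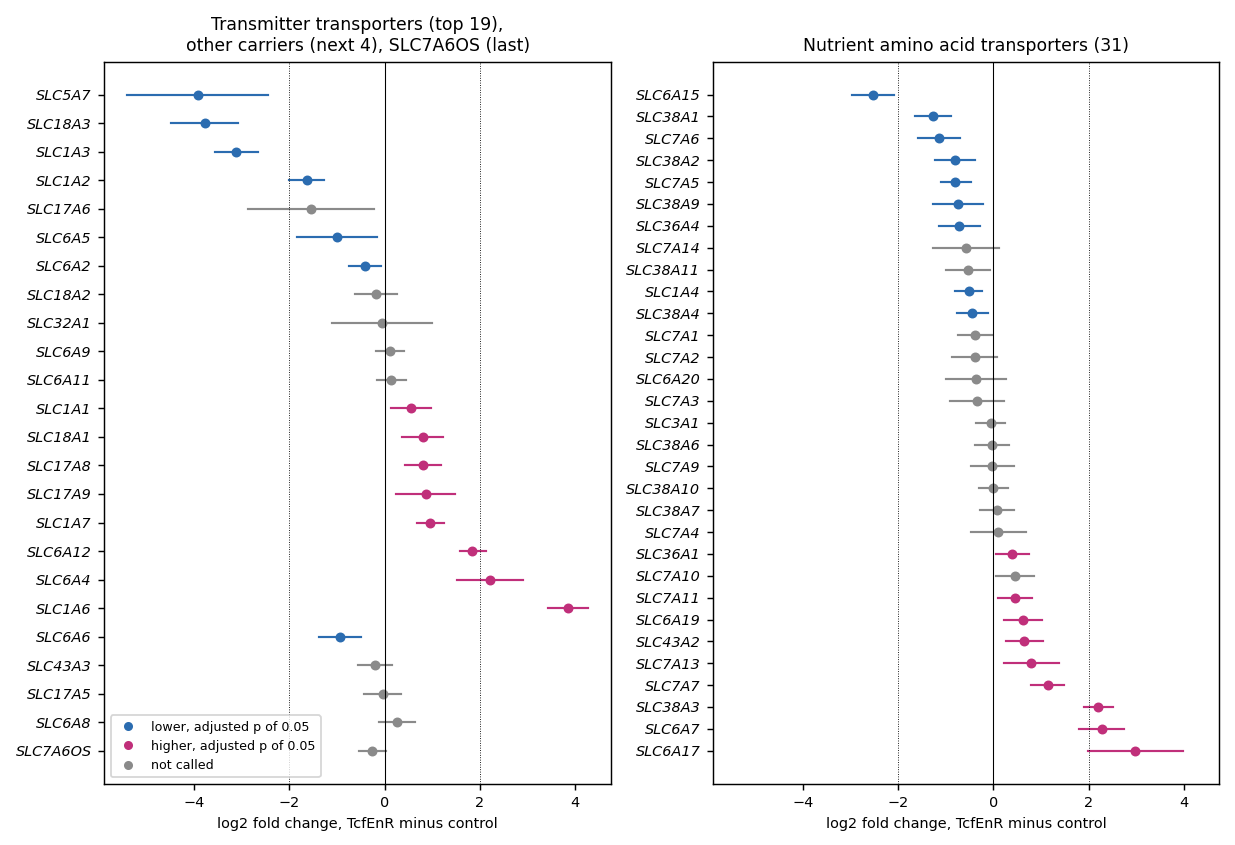
Log2 fold change (TcfEnR minus control, 3 arrays per group) of every member, as points with 95% confidence intervals from limma, coloured by call at an adjusted p of 0.05. Dotted lines mark 4-fold changes. Transmitter transporters ran from −3.92 for SLC5A7 to 3.84 for SLC1A6, and nutrient transporters from −2.52 for SLC6A15 to 2.98 for SLC6A17.

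The genes of acetylcholine transport fell the most. SLC18A3, the vesicular acetylcholine transporter, was at 10.67, 9.70 and 9.23 in control replicates 1, 2 and 3 and at 6.03, 6.14 and 6.07 in the TcfEnR replicates. SLC5A7, which takes choline back into the cholinergic terminal, was at 10.01, 8.61 and 6.72 and at 4.72, 4.24 and 4.61. Neither gene overlapped between groups, and the control arrays were spread much more widely than the TcfEnR arrays. The log2 fold change was −3.78 (SE 0.31, adjusted p = 2.38e-05) for SLC18A3 and −3.92 (SE 0.66, adjusted p = 0.00113) for SLC5A7. The size of the second depended on single arrays, at −3.14 without control replicate 1 and −4.79 without control replicate 3, whereas SLC18A3 kept to −4.10 to −3.38 when each array was left out in turn.

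CHAT, the enzyme that makes acetylcholine and the direct neighbour of SLC18A3 in the chicken genome, was at 9.20, 7.80 and 6.98 in control arrays and at 5.55, 5.22 and 5.29 in TcfEnR arrays. Its log2 fold change was −2.64 (SE 0.45, adjusted p = 0.00127), so that the transcript signals for acetylcholine synthesis, vesicle loading and choline uptake were all lower. ACHE, the acetylcholinesterase that breaks the transmitter down and was singled out after its values were seen, was instead higher by 0.65 (SE 0.19, adjusted p = 0.0168), a call that ended without TcfEnR replicate 1 (adjusted p = 0.0565) or TcfEnR replicate 3 (adjusted p = 0.0549). All 6 measured motor neuron markers, CHAT included, were lower, where 32.6% of all genes were lower. Like the other lists below, this one was drawn up by hand with earlier results of these data known, so the count only describes these genes. The log2 fold changes were −4.80 for ISL1 and −3.52 for MNX1. The summed level of these 6 genes was 12.24 to 13.17 in control and 8.66 to 8.84 in TcfEnR arrays, and its part in the fall of SLC18A3 and SLC5A7 was not tested. In sorted bulk cells, fewer cells of a type and less RNA per cell cannot be told apart.

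**Figure D2:**
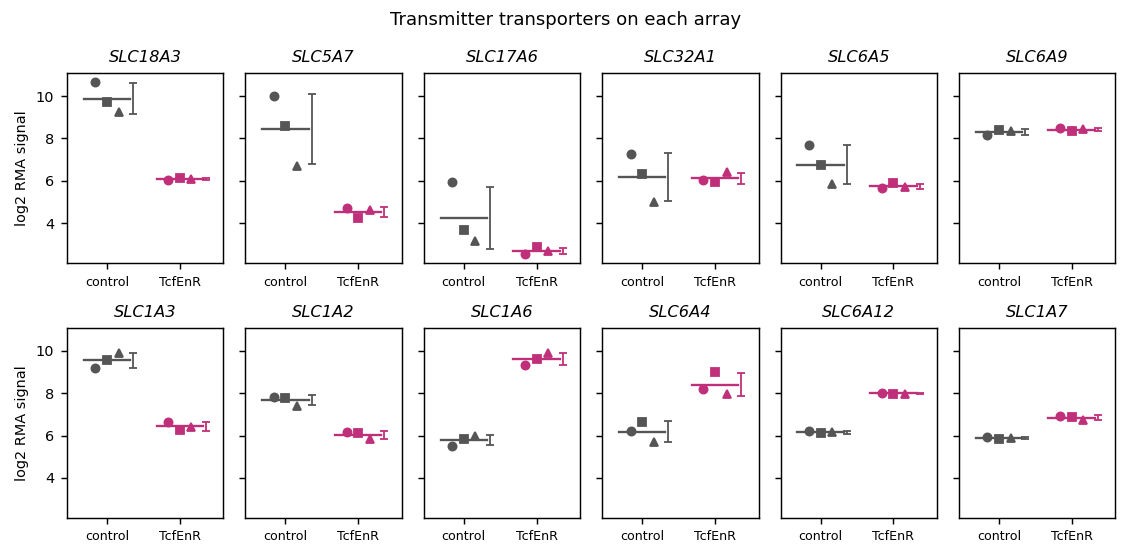
Log2 RMA signal of 12 transmitter transporters on each array, with circles, squares and triangles for replicates 1, 2 and 3, horizontal lines for group means and bars for ± SD (n = 3). SLC18A3 and SLC5A7 dropped from means of 9.87 and 8.44 to 6.08 and 4.52, SLC1A6 rose from 5.78 to 9.62, and the control points of SLC32A1, SLC17A6, SLC6A5 and SLC5A7 were far apart.

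Among glutamate transporters of the plasma membrane, SLC1A3 and SLC1A2 fell and others rose. SLC1A3 (GLAST), a marker of radial glia, was at 9.18, 9.55 and 9.92 in control arrays and at 6.64, 6.27 and 6.39 in TcfEnR arrays. SLC1A2, the main glutamate transporter of mature astrocytes in mammals, was at 7.84, 7.77 and 7.42 and at 6.17, 6.11 and 5.83. Both were lower on every TcfEnR array, with log2 fold changes of −3.12 (SE 0.20, adjusted p = 8e-06) and −1.64 (SE 0.16, adjusted p = 6.75e-05). Of 8 measured markers of radial glia and progenitors, 6 also fell and none rose, against 32.6% and 25.0% of all genes. FABP7 fell by 3.66 and SOX2 by 2.07 on the log2 scale. The summed level of the 8 markers was 14.41 to 14.79 in control and 13.23 to 13.49 in TcfEnR arrays. Its part in the fall of SLC1A3 was not tested.

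SLC1A6, which encodes EAAT4 and is known in mammals from cerebellar Purkinje cells, moved the other way. It was at 5.53, 5.83 and 5.98 in control arrays and at 9.32, 9.62 and 9.91 in TcfEnR arrays. Its rise of 3.84 on the log2 scale (SE 0.19, adjusted p = 3.02e-06), or 14.3-fold, was the largest rise on the chosen probe sets of the 55 members, and it carried the gene from the 31.4th to the 91.1st percentile of the probe sets of an array. Its 2 other probe sets rose less, by 2.19 and 1.99, and the mean of the 3 rose by 2.67, below the 2.91 of SLC6A17. SLC1A7 (EAAT5), a transporter of the mammalian retina, was at 5.92, 5.85 and 5.89 and at 6.92, 6.90 and 6.74. Its rise of 0.96 (SE 0.12, adjusted p = 0.000282) was also free of overlap, and a dimmer probe set of the gene rose by 2.33 (SE 0.20). SLC1A1, the neuronal transporter EAAT3, rose by 0.55 (SE 0.19, adjusted p = 0.0347), but was not called without control replicate 2 or 3 or TcfEnR replicate 1 or 3 (adjusted p of 0.0772 to 0.123).

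Vesicular glutamate transporters gave only dim signals. SLC17A6 (VGLUT2), which marks excitatory neurons of the spinal cord, was at 5.93, 3.66 and 3.14 in control arrays and at 2.54, 2.86 and 2.68 in TcfEnR arrays. The groups did not overlap, but the control mean rested on replicate 1, and in TcfEnR arrays the probe set stood at percentile 1.1, near the floor of the signal. Its log2 fold change of −1.55 (SE 0.58, 95% interval −2.87 to −0.23) missed the threshold (adjusted p = 0.0502), and was −0.71 without control replicate 1 (adjusted p = 0.0145) and −2.10 without control replicate 3 (adjusted p = 0.00615). SLC17A8 (VGLUT3) was at 4.18 to 4.56 in control and 5.01 to 5.43 in TcfEnR arrays, a rise of 0.81 (SE 0.17, adjusted p = 0.0033) that all 3 of its probe sets shared. The others were dimmer still, with control means of 3.17 and 2.51, near the floor of the signal.

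The carriers of the inhibitory transmitters were mixed, with SLC6A5 lower, SLC6A12 higher and SLC32A1, SLC6A9 and SLC6A11 not called. SLC32A1, which loads GABA and glycine into vesicles, was at 7.26, 6.30 and 5.0 in control arrays and at 6.02, 5.95 and 6.43 in TcfEnR arrays. The TcfEnR values lay inside the control range, and the log2 fold change was −0.06 with a 95% interval of −1.11 to 0.99 (SE 0.46, adjusted p = 0.928). Without control replicate 3 its estimate was −0.65 and without control replicate 1 it was 0.48, neither of them called. GAD1 and GAD2, the enzymes that make GABA, had log2 fold changes of −0.93 (SE 0.48, adjusted p = 0.128) and −0.46 (SE 0.18, adjusted p = 0.0524). Without control replicate 3 both were called, at −1.53 (adjusted p = 0.00191) and −0.65 (adjusted p = 0.00503). GAD1 was also called lower with the replicate block (adjusted p = 0.0492). GAD2 was also called lower with quantile normalization repeated, dim probe sets left out, array weights or adjustment over genes (adjusted p of 0.0199 to 0.0488).

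SLC6A5 (GlyT2), which refills glycinergic terminals, was at 7.67, 6.76 and 5.85 in control arrays and at 5.66, 5.88 and 5.71 in TcfEnR arrays. Control replicate 3 lay among the TcfEnR arrays. Of its 3 other probe sets, 2 were lower, at −1.97 (adjusted p = 0.0362) and −1.15 (adjusted p = 0.0422), and the dimmest was at 0.20. The log2 fold change of −1.01 (SE 0.37, adjusted p = 0.0471) had the highest adjusted p of the 6 that were lower, and it held only in the fit without control replicate 3, with an adjusted p between 0.0912 and 0.118 in the other 5. SLC6A9 (GlyT1), the glycine transporter of glia, was at 8.16, 8.42 and 8.36 and at 8.49, 8.33 and 8.43, with a log2 fold change of 0.11 and a 95% interval of −0.19 to 0.41. SLC6A11 (GAT3) was at 5.45 to 5.78 and 5.67 to 5.81, with 0.14 (95% interval −0.17 to 0.45), while its dimmer probe set was called lower at −0.65 (adjusted p = 0.0404). For these last 2 genes the groups overlapped.

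SLC6A12, a betaine and GABA transporter that serves as an osmolyte carrier in the mammalian kidney, rose with very little spread. It was at 6.21, 6.10 and 6.15 in control arrays and at 8.03, 7.98 and 7.97 in TcfEnR arrays. The log2 fold change was 1.84 (SE 0.12, adjusted p = 9e-06), and all 6 of its probe sets were higher, by 0.58 to 3.11.

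Monoamine transporters were mixed, with SLC6A4 and SLC18A1 higher, the dim SLC6A2 lower and the dim SLC18A2 not called. SLC6A4, the serotonin transporter, was at 6.22, 6.66 and 5.70 in control arrays and at 8.21, 9.02 and 7.97 in TcfEnR arrays, which did not overlap. Its log2 fold change was 2.21 (SE 0.31, adjusted p = 0.000411). TPH2, an enzyme of serotonin synthesis in neurons, was also singled out after its values were seen. Unlike SLC6A4 it was lower in the same arrays, at −0.86 (SE 0.21, adjusted p = 0.00769). Other enzymes of serotonin synthesis did not fall with TPH2. TPH1 was at 0.33 (SE 0.15, adjusted p = 0.0881), not called, and DDC was higher, at 0.56 (SE 0.18, adjusted p = 0.0256). SLC18A2, the vesicular transporter of serotonergic and catecholaminergic neurons, was at 4.76, 4.82 and 5.44 and at 4.92, 4.77 and 4.78, at the 21.2nd and 17.4th percentiles, with a log2 fold change of −0.19 and a 95% interval of −0.62 to 0.25.

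SLC18A1, the vesicular monoamine transporter of endocrine cells in mammals, was at 6.70 to 7.10 in control and 7.36 to 7.99 in TcfEnR arrays and rose by 0.80 (SE 0.19, adjusted p = 0.00682). SLC6A2, the noradrenaline transporter, fell by 0.41 on the log2 scale (SE 0.15, adjusted p = 0.0438) at a dim signal. That call ended without control replicate 1 or 2 or TcfEnR replicate 1 or 2 (adjusted p of 0.0961 to 0.154). DBH, which makes noradrenaline, rose by 1.85 (SE 0.15, adjusted p = 2.41e-05), while TH at 0.44 (SE 0.16, adjusted p = 0.0476) and DDC at 0.56 (SE 0.18, adjusted p = 0.0256) were near the threshold. The signal of TH was near the floor, at 3.25 to 3.53 in control and 3.62 to 4.12 in TcfEnR arrays. TH stayed called only in the fit without TcfEnR replicate 3, with an adjusted p between 0.0569 and 0.173 in the other 5, and DDC was not called without control replicate 1 or 3 or TcfEnR replicate 1 or 2 (adjusted p of 0.0549 to 0.0919). SLC17A9, which loads nucleotides into vesicles, was at 5.55 to 6.05 and at 6.17 to 7.30, a rise of 0.86 (SE 0.27, adjusted p = 0.0263) that was not called without control replicate 1 or 2 or TcfEnR replicate 3 (adjusted p of 0.0592 to 0.0697).

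Enzymes that make or remove transmitters were thus mixed, like the transporters. Of 14 measured, 3 fell (21.4%) and 7 rose (50%), the dim TH among them, against 32.6% and 25.0% of all genes. Their median log2 fold change was 0.39. GLUL, the glutamine synthetase that turns glutamate into glutamine in glia, had the largest change, from 8.19, 8.89 and 7.92 in control arrays to 10.85, 11.31 and 11.05 in TcfEnR arrays (log2 fold change 2.74, SE 0.24, adjusted p = 3.69e-05). It rose while the glutamate transporters SLC1A3 and SLC1A2 fell. HDC, which makes histamine, rose by 0.97 (SE 0.21, adjusted p = 0.00412). Without TcfEnR replicate 1 the enzymes called higher numbered 4, and without control replicate 3 those called lower numbered 5.

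Among nutrient transporters the SLC6 family held both the deepest fall and the largest rises. SLC6A15, a carrier of branched-chain amino acids and proline in mammalian neurons, was at 9.43, 9.43 and 9.18 in control arrays and at 7.05, 6.40 and 7.03 in TcfEnR arrays. The nearest arrays of the groups were 2.13 log2 units apart, and the log2 fold change was −2.52 (SE 0.19, adjusted p = 1.86e-05), with all 4 probe sets lower. SLC6A17, a neutral amino acid transporter of synaptic vesicles, was at 8.78, 8.29 and 6.77 and at 10.62, 10.87 and 11.27. It was higher on every TcfEnR array, by 2.98 on the log2 scale (SE 0.44, adjusted p = 0.000583), or 7.87-fold, although the control arrays differed among themselves by 2.01. The estimate was 3.39 without control replicate 1 and 2.39 without control replicate 3.

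SLC6A7, the proline transporter of mammalian brain, was at 6.57, 6.62 and 6.89 in control arrays and at 8.49, 9.25 and 9.18 in TcfEnR arrays. This rise of 2.27 (SE 0.21, adjusted p = 4.62e-05) was shared by its other probe set at 1.35. SLC6A19, the neutral amino acid transporter of gut and kidney in mammals, rose by 0.61 (SE 0.17, adjusted p = 0.0157) at the 14.7th percentile of control arrays, and was not called without control replicate 2 (adjusted p = 0.0561) or TcfEnR replicate 2 (adjusted p = 0.0655). SLC6A20, an imino acid carrier, was not called at −0.37 (95% interval −0.99 to 0.26), but was called without control replicate 2, at −0.66 (adjusted p = 0.0459). Its 2 dimmer probe sets pointed the other way, at 0.46 (adjusted p = 0.0524) and 0.79 (adjusted p = 0.00202), so that its direction depended on the probe set.

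In the SLC38 family, glutamine carriers moved apart. SLC38A1 (SNAT1), through which mammalian neurons take up glutamine, was at 10.91, 10.63 and 10.90 in control arrays and at 9.62, 9.24 and 9.76 in TcfEnR arrays. SLC38A2 (SNAT2), a carrier of small neutral amino acids, was at 10.29, 10.04 and 9.85 and at 9.58, 9.03 and 9.14. Both were lower without overlap, by 1.27 (SE 0.17, adjusted p = 0.00033) and 0.81 (SE 0.18, adjusted p = 0.00564) on the log2 scale, the first on all 7 of its probe sets. With quantile normalization repeated, SLC38A2 was at −0.51 and no longer called (adjusted p = 0.0509). SLC38A3 (SNAT3), a glutamine carrier of astrocytes and liver in mammals, rose from 7.04, 7.11 and 6.95 to 9.16, 9.37 and 9.17, by 2.20 (SE 0.13, adjusted p = 5.58e-06), in the same arrays in which GLUL rose.

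SLC38A9, a lysosomal sensor of arginine, fell by 0.74 (SE 0.23, adjusted p = 0.0237) and the dim SLC38A4 by 0.44 (SE 0.15, adjusted p = 0.0311). The first call ended without control replicate 1 or TcfEnR replicate 1 or 2 (adjusted p of 0.0512 to 0.0917), and the second without control replicate 2 or 3 or TcfEnR replicate 2 or 3 (adjusted p between 0.0792 and 0.0992). The 4 other family members, SLC38A6, SLC38A7, SLC38A10 and SLC38A11, had log2 fold changes of −0.53 to 0.07 and were not called. Of these SLC38A11, at −0.53 (adjusted p = 0.0532), narrowly missed the threshold. It was called lower under 7 of the alternatives (adjusted p of 0.00502 to 0.0489), and its second probe set was called at −0.84 (adjusted p = 0.00214).

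Light chains of the heteromeric transporters also split. SLC7A5 (LAT1), which brings large neutral amino acids into dividing cells, was at 10.25, 10.09 and 10.04 in control arrays and at 9.25, 9.23 and 9.52 in TcfEnR arrays. SLC7A6 (y+LAT2) was at 9.15, 9.80 and 9.17 and at 8.41, 8.13 and 8.16. They fell by 0.80 (SE 0.14, adjusted p = 0.00145) and 1.14 (SE 0.19, adjusted p = 0.00127) on the log2 scale. SLC7A7 (y+LAT1), which in mammals works in gut, kidney and macrophages, rose instead, from 4.66, 4.29 and 4.19 to 5.48, 5.52 and 5.56, by 1.14 (SE 0.15, adjusted p = 0.000349). Markers of blood and macrophages rose in the same arrays, 6 of 10 measured with none lower, against 25.0% and 32.6% of all genes. Among the 6 that rose were CD74 by 1.49 (SE 0.13) and the macrophage receptor CSF1R by 1.21 (SE 0.17). CSF1R was at 6.33, 6.40 and 6.90 in control arrays and at 7.74, 7.81 and 7.73 in TcfEnR arrays, without overlap. The summed level of the list, which includes 3 globins that were not called, was 11.43 to 12.00 in control and 11.44 to 14.17 in TcfEnR arrays, and their part in the rise of SLC7A7 was not tested.

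SLC7A11 (xCT), the cystine-glutamate exchanger that feeds glutathione synthesis, rose by 0.45 (SE 0.15, adjusted p = 0.0346), between 6.64 and 7.01 in control arrays and between 7.10 and 7.41 in TcfEnR arrays. That call ended without control replicate 1 or 2 or TcfEnR replicate 1 or 3 (adjusted p of 0.0516 to 0.116). SLC7A13 rose by 0.79 (SE 0.26, adjusted p = 0.0274), a call that ended without control replicate 2 (adjusted p = 0.0861) or TcfEnR replicate 3 (adjusted p = 0.101). SLC7A9 and SLC7A10 were not called, at −0.03 and 0.45, the second with an adjusted p of 0.0548 that fell to 0.0492 without control replicate 3 and 0.0311 without TcfEnR replicate 3. The heavy chain gene SLC3A1 had a log2 fold change of −0.06 (95% interval −0.36 to 0.24). The other heavy chain gene, SLC3A2, was not among the members, so nothing is known of it here.

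None of the 5 cationic amino acid transporters and their relatives was called on its chosen probe set. SLC7A1, SLC7A2, SLC7A3, SLC7A4 and SLC7A14 had log2 fold changes from −0.57 to 0.10 (unadjusted p = 0.0325 for SLC7A1 and 0.0926 or more for the others). SLC7A3 and SLC7A2 were called lower without control replicate 1, at −0.63 each (adjusted p = 0.0275 and adjusted p = 0.00845). Other probe sets of SLC7A4 and SLC7A14 were called, at 0.73 (adjusted p = 0.00158) and −0.73 (adjusted p = 0.0351). SLC7A14 was called without control replicate 3, at −0.88 (adjusted p = 0.0149), and SLC7A1 without TcfEnR replicate 3, at −0.49 (adjusted p = 0.0442).

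Of the remaining nutrient transporters, the neutral exchanger SLC1A4 (ASCT1) fell by 0.52 (SE 0.13, adjusted p = 0.00875) and the large neutral carrier SLC43A2 (LAT4) rose by 0.65 (SE 0.17, adjusted p = 0.011). With quantile normalization repeated, SLC1A4 was at −0.24 and not called (adjusted p = 0.164). The proton-coupled carriers SLC36A4 and SLC36A1 went opposite ways, at −0.72 (SE 0.19, adjusted p = 0.0117) and 0.40 (SE 0.15, adjusted p = 0.0484). All 7 probe sets of SLC36A1 were higher, although the call on the brightest ended without control replicate 2 or 3 or TcfEnR replicate 2 or 3 (adjusted p of 0.116 to 0.151) and with the replicate number as a block (adjusted p = 0.0864).

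**Figure D3:**
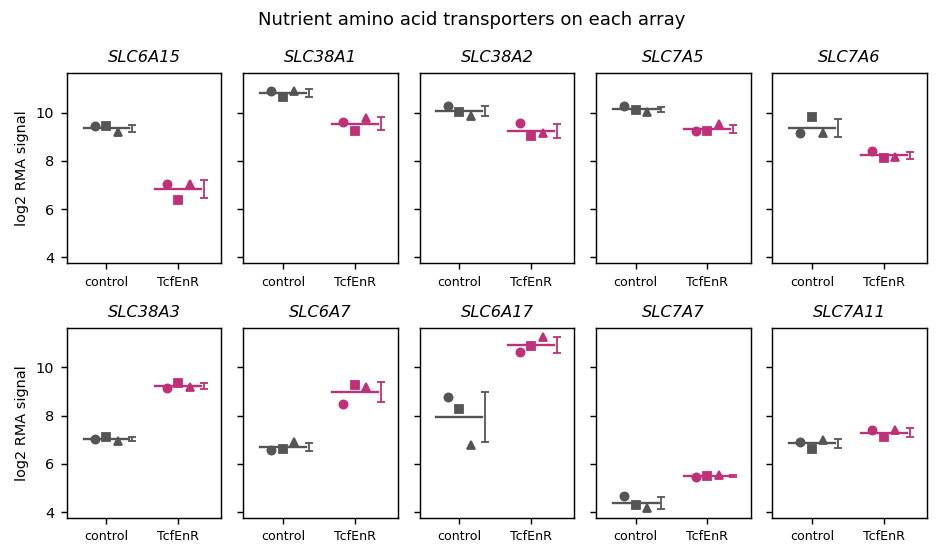
Log2 RMA signal of 10 nutrient amino acid transporters on each array, with circles, squares and triangles for replicates 1, 2 and 3, horizontal lines for group means and bars for ± SD (n = 3). SLC6A15 fell from a mean of 9.35 to 6.83, while SLC38A3, SLC6A7 and SLC6A17 rose from 7.03, 6.70 and 7.94 to 9.24, 8.97 and 10.92.

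Outside these 2 classes, the taurine transporter SLC6A6 was at 8.48, 8.99 and 8.27 in control arrays and at 7.51, 7.83 and 7.62 in TcfEnR arrays. It fell by 0.93 (SE 0.20, adjusted p = 0.00378), the only one of the 4 other carriers to be called. The creatine transporter SLC6A8 was at 0.25 (95% interval −0.13 to 0.63), the lysosomal sialic acid carrier SLC17A5 at −0.04 (95% interval −0.43 to 0.34) and the purine carrier SLC43A3 at −0.20 (95% interval −0.57 to 0.16). With quantile normalization repeated, SLC6A8 was called higher, at 0.49 (adjusted p = 0.0346). SLC7A6OS, a direct neighbour of SLC7A6 in the chicken genome, was not called at −0.27 (SE 0.12, adjusted p = 0.102), against −1.14 for SLC7A6.

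Several probe sets often read the same transporter, and they mostly moved together. The 55 members had 133 probe sets, and 39 members had more than 1. Of the 23 called members with more than 1 probe set, 22 had another probe set called in the same direction. SLC36A4 was the exception, with 1 of 5 probe sets called, and the mean of its probe sets was not (−0.24, adjusted p = 0.167). An opposite call was found in 1 called member, SLC7A5. Its 2 bright probe sets were at −0.80 and −0.81, and a dim one, at 4.19 to 4.27 in control arrays, rose by 0.57 (SE 0.15, adjusted p = 0.012). The mean over the 4 probe sets of SLC7A5 was not called (−0.27, adjusted p = 0.0723). Of the members not called, 6 had another probe set that was. SLC7A3 was not called on its brightest probe set, but 2 of its 7 probe sets were lower and 2 were higher.

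**Figure D4:**
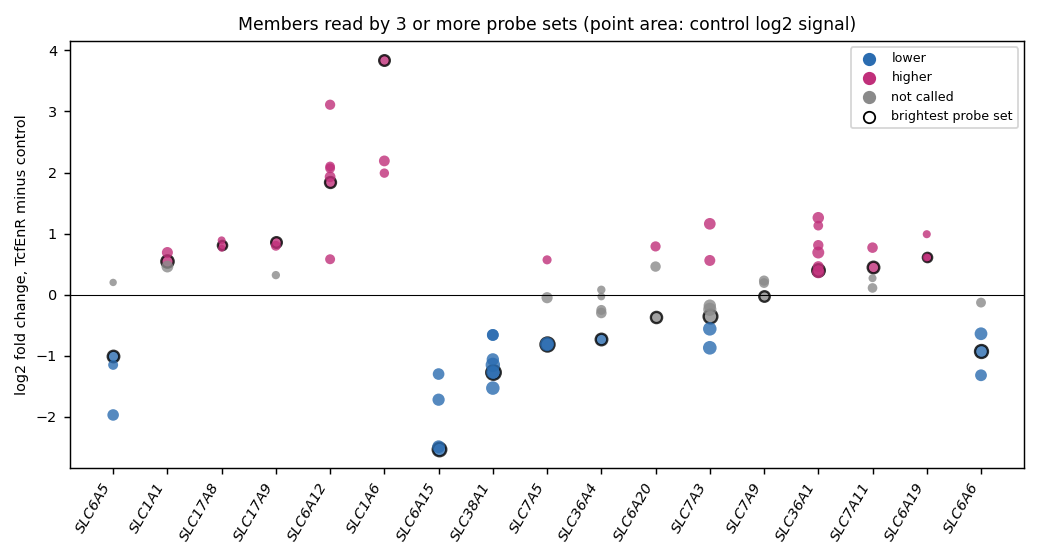
Log2 fold change (TcfEnR minus control) of every probe set of the members read by 3 or more, with point area following the control log2 signal, colour the call and a black ring the brightest probe set. The 6 probe sets of SLC6A12 and the 7 of SLC38A1 each lay on one side of 0, whereas SLC7A3 and SLC7A5 had called probe sets on both sides.

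Control arrays differed among themselves in some transporters of both classes. A range of more than 1 log2 unit between control arrays was found in 10 of the 55 members, or 18.2%, against 6.04% of all genes, and in 5 of the 19 transmitter transporters (26.3%) and 5 of the 31 nutrient transporters (16.1%). The 5 of the transmitter class, SLC5A7, SLC17A6, SLC32A1, SLC6A5 and SLC18A3, were highest in control replicate 1 and lowest in replicate 3, as were 3 of the 5 nutrient transporters and 367 of the 786 genes with such a range. The neuronal microtubule gene STMN2 stood in the same order, at 12.40, 11.59 and 10.48, and so did the summed level of 10 pan-neuronal markers, at 15.01, 14.65 and 13.95, while SLC1A3 was highest in replicate 3. In TcfEnR arrays the summed level was 11.85 to 12.06, and 8 of the 10 pan-neuronal markers were lower, against 32.6% of all genes. Its part in the lower signals of SLC5A7, SLC18A3 and SLC6A5 was not tested.

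Other marker lists were read against the 32.6% of all genes that were lower and the 25.0% that were higher. Of 10 inhibitory interneuron markers 3 were lower and 1 was higher, no more than that background, and of 7 excitatory interneuron markers 4 were lower. Neural crest markers were lower in 4 of 5, endothelial markers in 1 of 9 and mesenchyme markers in 1 of 9, and none of these was higher. The summed level of the mesenchyme markers was 11.96, 12.96 and 10.64 in control replicates 1, 2 and 3 and 11.39 to 11.58 in TcfEnR arrays. With control arrays this far apart, few calls do not show that the mesenchyme signals were unchanged.

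Other genes of amino acid supply were counted from lists, beside the same background. Aminoacyl-tRNA synthetases, which charge tRNAs for translation, were lower in 15 of 18 measured genes and higher in none, with a median log2 fold change of −0.88. With quantile normalization repeated, 10 were lower, none was higher and the median was −0.58. Their falls reached 1.27 for IARS, 1.26 for DARS and 1.25 for TARS on the log2 scale. Genes of the ATF4 response to amino acid shortage moved little, with 3 of 18 lower, 3 higher and a median of −0.08. ATF4 itself was at 12.39 to 12.48 in control and 11.77 to 11.97 in TcfEnR arrays, a fall of 0.58 (SE 0.13, adjusted p = 0.00446), and its target ASNS, asparagine synthetase, fell by 1.03 (SE 0.13, adjusted p = 0.000234). CBS of the cystathionine pathway fell by 0.83 (SE 0.14) and the mitochondrial enzyme PCK2 rose by 0.94 (SE 0.14). Without control replicate 1 the genes of this list called lower numbered 5, and without TcfEnR replicate 1 or 2 only 1 was called higher.

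Of 23 genes listed for amino acid sensing, 5 fell and 2 rose, with a median of −0.21. With quantile normalization repeated, however, 2 fell and 4 rose, with a median of 0.08. Most of the list belongs to mTORC1 signalling, but EIF2AK4 and GCN1 belong to the sensing of uncharged tRNA. RRAGD, a Rag GTPase that brings mTORC1 to the lysosome, fell by 2.21 (SE 0.14, adjusted p = 8e-06) and the mTOR partner MLST8 by 0.77 (SE 0.15, adjusted p = 0.00272). The calls of GCN1 (0.73, adjusted p = 0.0389) and SESN3 (0.59, adjusted p = 0.0382) as higher depended on single arrays. None of the 23 genes was called higher without TcfEnR replicate 1 or without TcfEnR replicate 2. In these fits GCN1 was still at 0.51 and 0.69, and SESN3 at 0.63 and 0.68. Among 11 genes listed for glutathione and cystine use or for the NRF2 response, 2 fell and 4 rose, with a median of 0.00. HMOX1 and NQO1 were listed for the NRF2 response. The risers were GPX1 by 0.94 (SE 0.15), HMOX1 by 0.89 (SE 0.23), GCLC by 0.72 (SE 0.16) and NQO1 by 0.66 (SE 0.15). GCLM and GSR were the fallers, with log2 fold changes of −0.55 (SE 0.13) and −0.5 (SE 0.16). With quantile normalization repeated, 0 genes of this list were lower, 4 were higher and the median was 0.2. The genes of this list called lower numbered 1 without control replicate 2 or 3 or TcfEnR replicate 1 or 3.

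**Figure D5:**
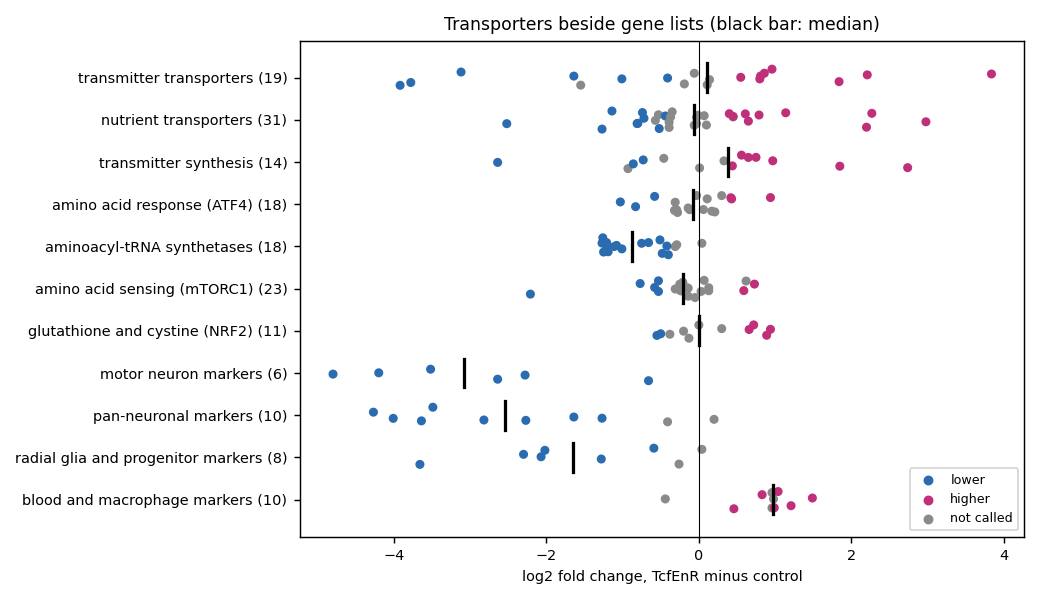
Log2 fold change (TcfEnR minus control) of each measured gene in the 2 transporter classes and in 9 gene lists, coloured by call, with a black bar at each median and numbers of genes in brackets. Medians were −0.88 for aminoacyl-tRNA synthetases and −0.06 for nutrient transporters, and points of the transmitter transporters reached farther on both sides, from −3.92 to 3.84.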

How the data were processed

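GFP+ cells sorted from chick neural tubes at 4 days of incubation were profiled on Affymetrix GeneChip Chicken Genome Arrays, 3 per group. The authors deposited log2 values made by RMA, in a software version and with steps not given in the sources used here. RMA usually gives all arrays of a run equal quantiles, but here the upper quantiles differ between groups (95th percentile 10.49 to 10.52 in control and 10.16 to 10.21 in TcfEnR arrays), so whether all 6 were quantile normalized together is unknown. This bears on the fold changes of bright genes. The values were fitted as deposited. Depth is not defined for arrays, and their number limits precision. Gene symbols came from the platform annotation, in which 27168 of 38439 non-control probe sets had a single symbol, and 53 of the 55 members had the same symbol in the current RefSeq table (GRCg7b). No sequences were used here.

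TcfEnR minus control was fitted per probe set with limma 3.58.1 in R 4.3.3 without a filter on low signals, with the Benjamini-Hochberg adjustment taken over all 38439. SE is the moderated standard error. The percentile of a signal is its rank among the probe sets of an array, averaged over a group, and the summed level of a list is the log2 of its summed linear signals. The script was tested on simulated data. Members given with every array were those called with a change of at least 2-fold and the transporters that define a transmitter type, and other members could be named with their change. From each list up to 4 called genes with the largest changes and a few key enzymes were named. The 14 lists were drawn up by hand. Members and lists were chosen with earlier results of these data known. Replicate numbers were not said to pair the arrays and were not used as pairs in the main fit, and p-values measure only the spread between these pools.

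Alternatives were quantile normalization repeated, median centring, dim probe sets left out, a variance trend with robust moderation, array weights, the replicate block, each array left out, adjustment over genes, the 4-fold threshold and the mean of a gene's probe sets.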

Additional observations from a re-analysis of the deposited data

How the results depend on the processing

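Of 33 called members, 19 kept their call under all 13 alternatives other than the 4-fold threshold and the filter on dim probe sets, and none changed direction while called. Precision was limited by 3 arrays per group. The dim filter, at the 25th percentile, left 7 members unfitted, among them SLC17A6 and SLC17A8. Except where a value shows otherwise, the cause of a change was not tested. Repeating quantile normalization moved the median of all genes from −0.09 to 0.03 and the share of calls that were higher from 43.5% to 52.2% (members 51.5% to 52.9%, transmitter transporters 57.1% to 53.3%). It gave 1 other carrier higher, 2 genes of the amino acid sensing list lower and 4 higher, and 0 genes of the glutathione list lower.

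Same-numbered arrays did not deviate together (r of −0.04, 0.02 and −0.06). With the replicate block, 15 members were lower and 16 higher, and 1 gene of the amino acid sensing list was higher. The block ended the calls of SLC6A2 (adjusted p = 0.0814), SLC38A9 (0.0502), SLC38A4 (0.0626) and SLC36A1 (0.0864), and SLC17A6 (0.0413) and SLC38A11 (0.033) gained one.

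The 4-fold threshold left 3 transmitter transporters lower and 2 higher, 1 nutrient transporter lower and 3 higher, and 0 other carriers lower. It left 4 members lower and 5 higher, and 1 synthesis gene lower and 1 higher. There were 0 ATF4 genes in either direction and 0 synthetases lower. The amino acid sensing list had 1 gene lower and 0 higher, and the glutathione list had 0 in either direction. Of all genes, 450 were lower and 202 higher. Without SLC1A1, SLC17A9 and SLC6A12, whose roles are wider, 5 transmitter transporters were higher.

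With each array left out in turn, nutrient transporters higher ran from 5 to 9 and members higher from 11 to 16. Synthesis genes lower ran from 3 to 5 and higher from 4 to 6. ATF4 genes lower ran from 3 to 5 and higher from 1 to 3. Genes of the amino acid sensing list lower ran from 3 to 5 and higher from 0 to 2. Those of the glutathione list lower ran from 1 to 3.

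The median of the transmitter class (0.11) was 0.03 with quantile normalization repeated and −0.12 without the genes of wider roles, and that of the nutrient class (−0.06) was −0.21 with dim probe sets left out.

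All members that changed sign were uncalled in the main setting. Ranges over single arrays left out were −0.31 to 0.03 for SLC18A2, −0.65 to 0.48 for SLC32A1, −0.13 to 0.02 for SLC3A1, −0.10 to 0.10 for SLC38A6, −0.20 to 0.12 for SLC7A9, −0.09 to 0.06 for SLC38A10, −0.06 to 0.21 for SLC38A7, −0.15 to 0.41 for SLC7A4 and −0.20 to 0.04 for SLC17A5. Quantile normalization put SLC38A6 at 0.15, SLC38A10 at 0.30 and SLC17A5 at 0.12, and array weights put SLC7A9 at 0.02. The mean of probe sets put SLC32A1 at 0.12, SLC6A11 at −0.26, SLC6A20 at 0.29, SLC7A9 at 0.13, SLC38A10 at 0.09 and SLC38A7 at −0.04.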
